A study of Mus musculus with 24 samples.

Results

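The genes described here encode the glucose transporter Slc2a1 and the enzymes Hk2, Pfkl, Aldoa, Tpi1, Gapdh, Pgk1, Eno1, Pkm and Ldha. The set was chosen by name as the core of glycolysis, with no measured value in the rule. All 10 were found among the 20868 genes of the tables. Each had 1 distinct 3′UTR interval.

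Glycolysis splits glucose into pyruvate in the cytosol and yields ATP without oxygen. The transporter, hexokinase and phosphofructokinase set how much glucose enters the pathway. The enzymes below the split of fructose bisphosphate are shared by both trioses, and the last of them yields pyruvate, which lactate dehydrogenase turns into lactate. Rapidly dividing haematopoietic and leukemic cells are known for high glycolytic flux. Many of these genes are textbook targets of the hypoxia factor HIF-1 and of MYC.

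The cells were mouse preleukemic cells, made by the study from c-Kit+ fetal liver cells with retroviruses for Meis1 and Hoxa9 (the labels write Hox9/Meis1), which all groups carried. The controls had floxed Tut4 and Tut7 alleles without Cre, and the cDKO cells had Tut4 fl/fl; Tut7 fl/fl with Vav-iCre, a Cre driven by the promoter of a gene of blood cells. TUT4 and TUT7 are terminal uridylyltransferases, whose uridine tails promote RNA decay. The cells took up 4-thiouridine (4SU) at 2.9 µM over 12 h and were then collected after a 4SU-free chase of 0, 60, 180 or 540 min. There were 3 libraries of each genotype at each time, 24 in all. Libraries read the 3′ ends of transcripts, where incorporated 4SU appears as a T-to-C conversion after alkylation. Levels below are 3′UTR counts scaled to library size (CPM), and the conversion rate is the percentage of covered T positions read as C.

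Reads in 3′UTRs numbered 4380238 to 7041311 per library. At 0 min Tut4 stood at 68.1 to 86.3 CPM in control and 17.8 to 30.2 CPM in cDKO, and Tut7 at 34.6 to 45.1 and 16.7 to 20.2 CPM. Library-wide, control libraries were converted at 1.64 ± 0.0261% and cDKO libraries at 0.736 ± 0.169% when the chase began (SD, n = 3). Among the cDKO libraries replicate 3 stood apart at all 4 times, with 0.542% at the start against 0.821 and 0.845% in the others. The genotypes also differed in marker genes of cell types. All 10 markers of myeloid progenitors were detected, and their sum was 8539 to 9535 CPM in control and 2938 to 4225 CPM in cDKO. Most of the difference lay in the granule genes Prtn3, Ctsg, Elane and Mpo, while Myb had 640 to 863 CPM in control and 627 to 903 CPM in cDKO, and Cebpa 101 to 183 and 141 to 293 CPM. The sum of 8 erythroid markers was 5.07 to 14.7 CPM in control and 1391 to 2274 CPM in cDKO, mostly Hbb-bt, with Epor at 0 in every library. For 7 mast cell and basophil markers the sums were 16.7 to 35.2 and 147 to 322 CPM, with Fcer1a at 0. The difference lay in Gata2, Cpa3 and Hdc, while Ms4a2 had 3.41 to 11.3 CPM in control and 3.27 to 10.2 CPM in cDKO, and Mcpt8 6.26 to 18.8 and 6.30 to 16.5 CPM. Sums of 6 macrophage markers were 66.9 to 109 CPM in control and, mostly from Adgre1, 192 to 302 CPM in cDKO, with Csf1r at 23.5 to 53.0 and 0 to 2.64 CPM. Sums of 7 neutrophil markers were 36.9 to 81.7 and 3.22 to 12.2 CPM, those of 4 megakaryocyte markers 1.11 to 6.19 and 6.92 to 23.7 CPM, and those of 6 lymphoid markers at most 0.882 CPM. The part of these markers in the genotype differences below was not tested. In bulk libraries, fewer cells of a type and less RNA per cell cannot be told apart.

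The promoters are shown first, because these genes are known for a shared core of binding letters, ACGTG, which lies within the HIF-1 element and the E-box. Windows around this motif are given from RefSeq promoter sequences (250 bases before to 50 after each start, GRCm38.p6, the mm10 assembly), with the motif or its reverse complement CACGT in capitals. Each is printed 5′ to 3′ on the strand of the gene.
Slc2a1, chr4:119108697-119108725, plus strand: gtcccgccccggACGTGctccccaggccc
Hk2, chr6:82774490-82774518, minus strand: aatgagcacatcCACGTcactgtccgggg
Aldoa, chr7:126799364-126799392, minus strand: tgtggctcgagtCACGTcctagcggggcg
Pgk1, chrX:106186938-106186966, plus strand: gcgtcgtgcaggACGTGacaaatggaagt
Pkm, chr9:59657140-59657168, plus strand: ctccgatccggtCACGTccgcgccgcagc
Ldha, chr7:46845647-46845676, plus strand: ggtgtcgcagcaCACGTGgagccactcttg
Ldha, chr7:46845744-46845773, plus strand: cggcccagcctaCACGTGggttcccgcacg
ACGTG or its reverse complement was present in at least 1 promoter of 7 of the 10 genes (these 6 and Gapdh). It was present for 21.8% of the 27025 gene symbols in the promoter table, and for 19.6% of its 32851 promoters. Both Ldha windows hold the full palindrome CACGTG, which contains ACGTG on both strands. CACGTG was found for 8.09% of the symbols and among the members for Ldha alone. GCGTG, the other form of the HIF-1 core, was present for 5 of the 10 genes (Ldha, Eno1, Gapdh, Pfkl and Slc2a1) and for 35.2% of the symbols. These are matches of letters in fixed windows and were not tested as binding sites.

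How far each gene can be read in these tables depends on its copies elsewhere in the genome, since glycolytic genes have many processed copies. Of the Pgk1 reads, 99.4% also mapped to another place, and so did 92.7% of the Gapdh reads. Pkm had 27.7% of such reads, and Tpi1, Aldoa, Ldha, Slc2a1, Pfkl and Hk2 had 2.74% or less. Eno1 had 38 to 106 reads per library, of which 34.2% were multimapping. Its retrogene copy Eno1b held 1678 to 3074 reads per library, of which 71.5% were multimapping. Reads of the enolase transcript can therefore not be split with certainty between the gene and its copy, and values of Eno1, Gapdh and Pgk1 are uncertain for this reason.

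**Figure D1:**
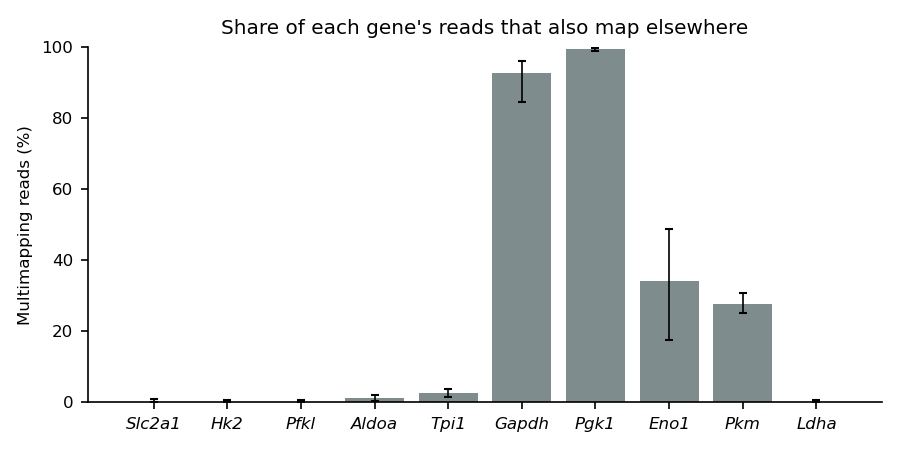
Percentage of each gene's reads that the tables count as multimapping, over all 24 libraries (bars), with the lowest and highest library (whiskers). Pgk1 and Gapdh lie at 99.4 and 92.7%, Eno1 and Pkm at 34.2 and 27.7%, and the other 6 genes at 2.74% or less.

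Abundance was compared between genotypes at each chase time, to ask whether loss of Tut4 and Tut7 changed the level of the pathway. At 540 min all 10 genes lay above 0 in log2 change, with a median of 0.33, although without multimapping reads Gapdh stood at -0.74 ± 0.40. Of the 10, 4 passed the test as higher in cDKO: Ldha, Pgk1, Tpi1 and Slc2a1. At earlier times fewer passed. Only Pgk1 passed at 0 min, Pgk1 and Hk2 were higher and Aldoa lower at 60 min, and Pgk1, Hk2 and Pfkl were higher at 180 min. The edgeR quasi-likelihood test with Benjamini-Hochberg adjustment over all genes called 1 of 10 members at 0 min, where 13.4% of all genes tested were called. It called 3 of 10 at 60 min (20.2% of all genes), 3 of 10 at 180 min (18.9%) and 4 of 10 at 540 min (19.2%). The median log2 change over all genes was at most 0.01 in size at each time.

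Slc2a1 (GLUT1, chromosome 4, 119136447 to 119137330, plus strand, 3′UTR, mm10) carries glucose into the cell. At 540 min its control libraries held 66.3, 62.3 and 69.0 CPM and its cDKO libraries 85.8, 85.3 and 78.5 CPM. Every cDKO library lay above every control library at 60, 180 and 540 min, while at 0 min the groups overlapped. The log2 change at 540 min was 0.33 ± 0.10 (SE, edgeR adjusted p = 0.0485). At 0 min it was -0.08 ± 0.13 (edgeR adjusted p = 0.755). The call at 540 min was lost with DESeq2 (adjusted p = 0.0551), without the filter on low counts (edgeR adjusted p = 0.0506) and with the replicate block (edgeR adjusted p = 0.0942). It held without cDKO replicate 3 and was lost without each of the other 5 libraries.

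Hk2 (chromosome 6, 82725025 to 82727309, minus strand) phosphorylates glucose at the mitochondrial surface. At 180 min the control libraries held 27.3, 27.8 and 27.1 CPM and the cDKO libraries 37.8, 57.4 and 41.7 CPM. The groups did not overlap there, nor at 60 and 540 min. The log2 change was 0.54 ± 0.13 at 60 min (edgeR adjusted p = 0.0131) and 0.72 ± 0.17 at 180 min (adjusted p = 0.0134). At 540 min it was 0.63 ± 0.20 and missed the threshold (adjusted p = 0.0528), which DESeq2 passed (adjusted p = 0.0129). The call at 60 min was lost in the fit of all 24 libraries (edgeR adjusted p = 0.0555) and without replicate 1 of either genotype. That at 180 min was lost without each of the control replicates. Hk2 was one of the lowest counts here, with 136 to 350 reads per library.

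Pfkl (chromosome 10, 77986947 to 77988209, minus strand), the liver-type phosphofructokinase, had 91.4, 124 and 102 CPM in control libraries and 156, 141 and 164 CPM in cDKO at 180 min. These groups did not overlap, and the log2 change was 0.52 ± 0.12 (edgeR adjusted p = 0.0151). At 540 min it was 0.40 ± 0.13 (edgeR adjusted p = 0.0564), and passed with DESeq2 and with the replicate block (adjusted p = 0.0115 and 0.0334). Its level was lowest at 180 min in both genotypes, with means of 106 ± 16.5 and 154 ± 11.8 CPM (SD, n = 3).

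Among the enzymes of the lower pathway, Aldoa (chromosome 7, 126795234 to 126795418, minus strand), which splits fructose bisphosphate, was the one gene called lower. At 60 min it had 1213, 1279 and 1252 CPM in control libraries and 1094, 1111 and 975 CPM in cDKO. Its log2 change was -0.26 ± 0.07 at 60 min (edgeR adjusted p = 0.0209) and 0.18 ± 0.06 at 540 min (adjusted p = 0.0846), where each cDKO library lay above each control library. Tpi1 (chromosome 6, 124810592 to 124811268, minus strand), which interconverts the triose phosphates, had 260, 266 and 294 CPM in control libraries and 355, 345 and 350 CPM in cDKO at 540 min. Its log2 change there was 0.35 ± 0.07 (edgeR adjusted p = 0.0082). Its cDKO libraries lay above all control libraries at 60 and 540 min only.

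Pgk1 (chromosome X, 106203280 to 106203699, plus strand), the first enzyme of the pathway to yield ATP, separated the genotypes completely at all 4 times, with cDKO higher. At 0 min it had 266, 322 and 314 CPM in control libraries and 369, 370 and 384 CPM in cDKO. The log2 changes were 0.33, 0.30, 0.32 and 0.34 in order of time (edgeR adjusted p = 0.0459, 0.0101, 0.0495 and 0.015). With the replicate block the calls at 0 and 180 min were lost (edgeR adjusted p = 0.0797 and 0.0621). Since nearly all its reads were multimapping, these values belong to the gene and its copies together. Without multimapping reads Pgk1 passed at none of these times: it had a log2 change of 0.20 ± 0.58 at 0 min, -0.32 ± 0.54 at 60 min and 1.11 ± 0.50 at 180 min, and at 540 min too few reads to be tested.

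Ldha (chromosome 7, 46855142 to 46855627, plus strand), which makes lactate, had 395, 400 and 409 CPM in control libraries and 482, 572 and 477 CPM in cDKO at 540 min. The groups did not overlap at 180 and 540 min. The log2 change was 0.11 ± 0.09 at 0 min (edgeR adjusted p = 0.489) and 0.34 ± 0.08 at 540 min (adjusted p = 0.0162). Pkm (chromosome 9, 59678835 to 59679375, plus strand), which makes pyruvate, was within 0.03 of 0 at 0, 60 and 180 min and had a log2 change of 0.15 ± 0.05 at 540 min (edgeR adjusted p = 0.0642). Gapdh (chromosome 6, 125161852 to 125162031, minus strand), the dehydrogenase of the pathway, was called at none of the 4 times and had 71.4 to 128 CPM over all libraries. Eno1 (chromosome 4, 150248556 to 150248873, plus strand), which makes phosphoenolpyruvate, was called at none either. With the reads of Eno1 and Eno1b summed, the log2 change of the enolase was 0.25 ± 0.11 at 540 min (edgeR adjusted p = 0.14) and between -0.06 and 0.13 at the other times.

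These calls rested on few libraries. Tpi1 at 540 min was the one member called when any of the 6 libraries of the comparison was left out. At 540 min, 1 member was called without control replicate 1, 2 without control replicate 2 or 3, and 7 without cDKO replicate 3. At 180 min none was called without control replicate 1 or 3, and 1 without control replicate 2 or cDKO replicate 1. At 60 min 1 was called without control replicate 2 or 3. Pgk1 at 0 min stayed called without cDKO replicate 2 and lost the call without each of the others.

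**Figure D2:**
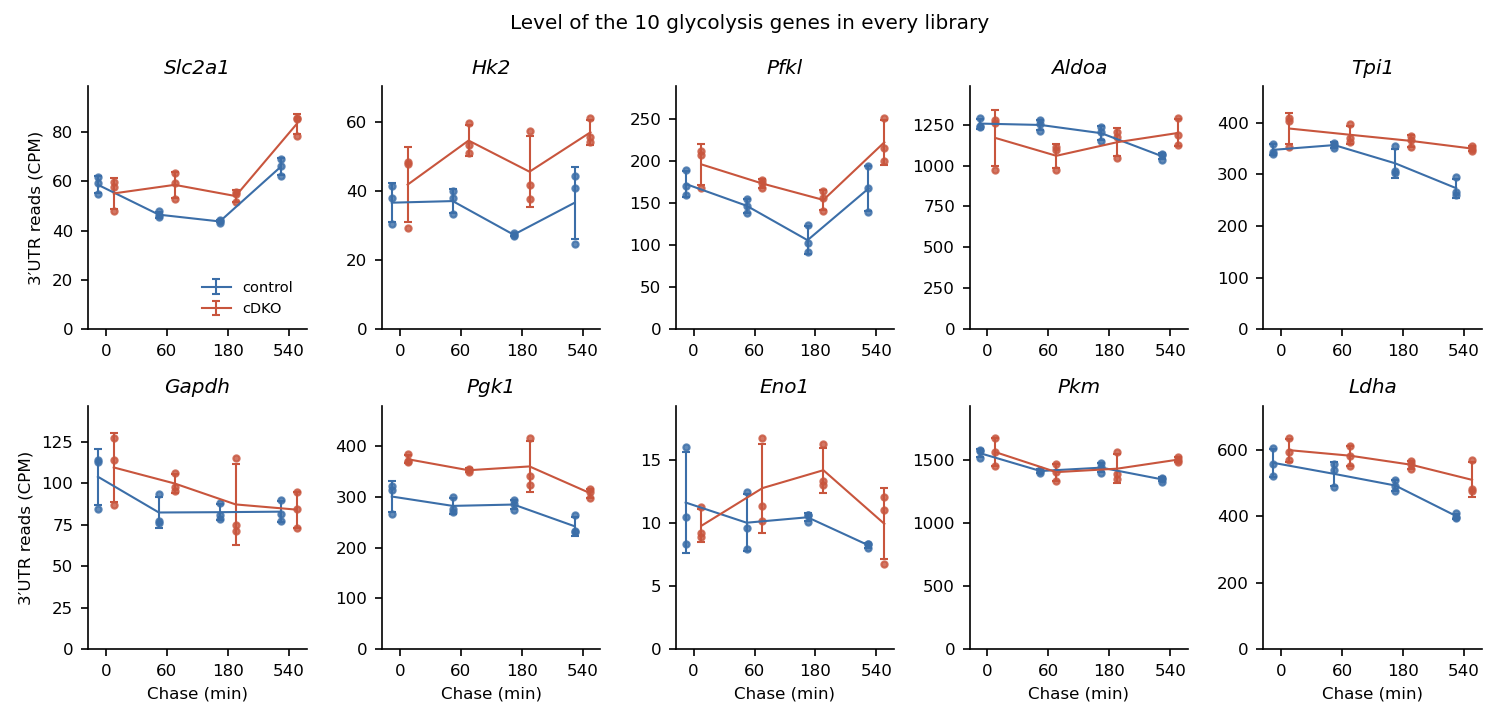
Level of each gene in CPM (vertical axis, from 0) by chase time in min (horizontal axis, times spaced equally), with 1 point per library, and lines and bars for the mean and SD of 3 libraries in control (blue) and cDKO (red). Pgk1 is higher in each cDKO library at all 4 times, while Ldha and Tpi1 separate by 540 min as the control libraries reach 395 to 409 and 260 to 294 CPM.

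Levels at 540 min were then set against those at 0 min within each genotype. Each chase time is its own batch in the labels, and time and batch cannot be told apart. In control, 6 members fell, all of them enzymes from aldolase onwards. They were Ldha, Tpi1, Gapdh, Pgk1, Aldoa and Pkm, while Slc2a1, Hk2, Pfkl and Eno1 did not pass. The median log2 change of the 10 members was -0.32. Of all genes tested, 16.2% were called in this comparison. Ldha had 521, 607 and 557 CPM at 0 min and 395, 400 and 409 CPM at 540 min, a log2 change of -0.52 ± 0.06 (edgeR adjusted p = 2.22e-05). Its means went through 528 and 493 CPM at 60 and 180 min. Tpi1 had 359, 340 and 343 CPM at 0 min and 260, 266 and 294 CPM at 540 min, and fell by 0.38 on the log2 scale (edgeR adjusted p = 0.000804). Gapdh fell by 0.36, Pgk1 by 0.35, Aldoa by 0.29 and Pkm by 0.25. The calls of Ldha, Pkm, Aldoa and Tpi1 held in each of the 6 fits that left out 1 library. That of Pgk1 was lost without control replicate 2 of 0 min. That of Gapdh was lost without replicate 2 or 3 of 0 min or replicate 1 or 2 of 540 min. Without multimapping reads the log2 change of Gapdh was 0.56 ± 0.34 (edgeR adjusted p = 0.286), opposite in sign, and Pgk1 could not be tested.

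In cDKO no member passed, where 0.117% of all genes tested were called (12 of 10235, with 1137 at an unadjusted p under 0.05). Slc2a1 had 59.6, 48.0 and 57.6 CPM at 0 min and 85.8, 85.3 and 78.5 CPM at 540 min. These libraries did not overlap, and the log2 change was 0.56 ± 0.12 (edgeR adjusted p = 0.174). DESeq2 called it (adjusted p = 0.041) and no other member. Pgk1 had a log2 change of -0.32 ± 0.08 and Ldha of -0.27 ± 0.10 (edgeR adjusted p = 0.252 and 0.403). Here the replicate numbers paired the libraries, and the fit with a replicate block called 128 genes and again no member (adjusted p of Slc2a1 = 0.0619).

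The difference between the genotypes in this change was tested as an interaction. No gene was called (0% of 10651 tested, with 557 at an unadjusted p under 0.05), and DESeq2 called 6 genes, none of them a member. The blocked fit also called 6 genes and no member. Of the members 9 lay above 0. The smallest p belonged to Slc2a1, with 0.43 ± 0.15 (edgeR adjusted p = 0.926), followed by Ldha with 0.25 ± 0.12 and Aldoa with 0.29 ± 0.14 (adjusted p = 0.955 for each). Hk2 and Eno1 had 0.46 ± 0.31 and 0.52 ± 0.41. The fall of 6 genes in control and of none in cDKO is thus not shown to differ between the genotypes.

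**Figure D3:**
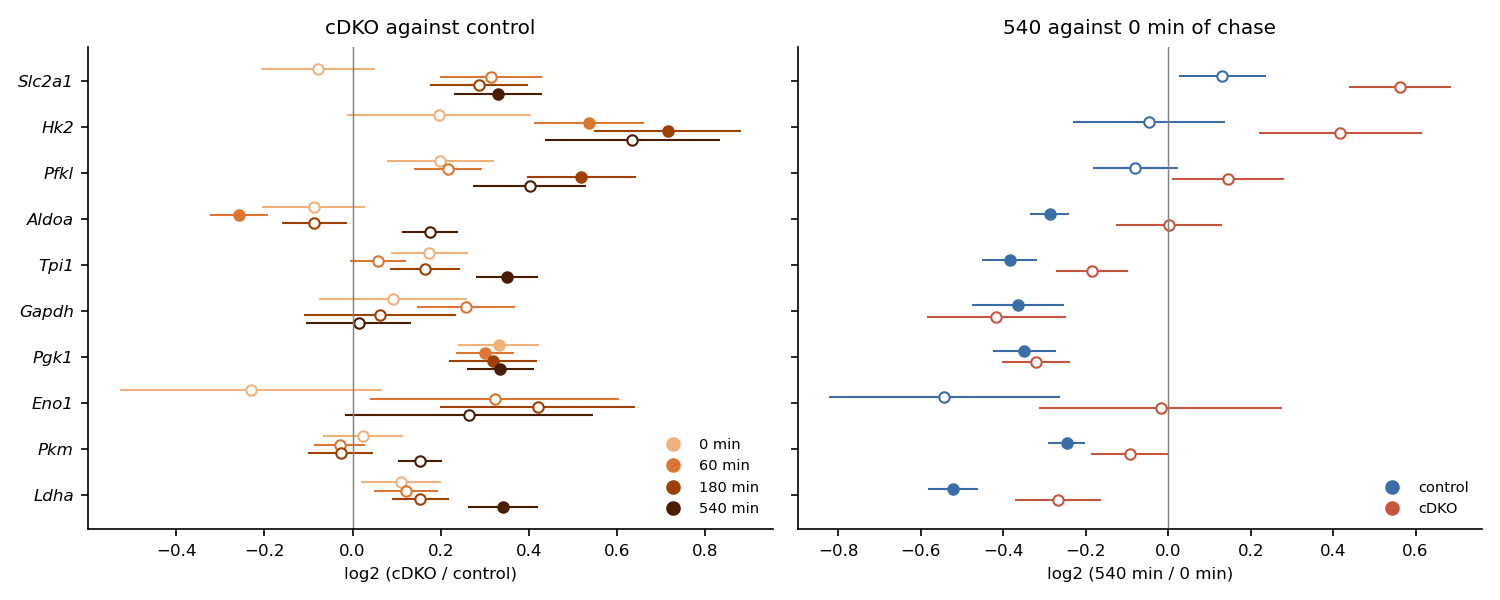
Fitted log2 changes with their SE for the 10 genes, cDKO against control at the 4 chase times (left) and 540 against 0 min in control (blue) and cDKO (red, right). Filled points passed an adjusted p of 0.05. On the left the 540 min values all lie above 0, and on the right 6 control values are filled below 0 and no cDKO value is filled.

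The conversion rate at 0 min, taken relative to the library-wide rate, reflects how strongly a transcript was labelled over the 12 h. Members differed widely in it. In control, Slc2a1 and Hk2 were labelled above the library-wide rate, at 1.43 ± 0.242 and 1.39 ± 0.0891 times that rate (SD, n = 3). Ldha, Tpi1, Aldoa, Pgk1 and Pkm were below it, from 0.770 ± 0.0466 for Ldha and 0.750 ± 0.0626 for Tpi1 to 0.602 ± 0.0107 for Pgk1 and 0.589 ± 0.0298 for Pkm. Pfkl, at 0.831 ± 0.0284, lay between these. In cDKO the same genes stood at 1.27 ± 0.231 (Slc2a1), 1.45 ± 0.257 (Hk2), 0.798 ± 0.304 (Pfkl), 0.721 ± 0.0593 (Ldha) and 0.487 ± 0.0456 (Pkm).

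Relative to the library-wide rate, the test of conversion counts called none of the 9 members tested, and 0.318% of all genes tested (28 of 8809, 714 at an unadjusted p under 0.05). Eno1 had fewer than 50 conversions and was not tested. Pkm had the smallest p among the members, with a log2 difference of -0.26 ± 0.07 (edgeR adjusted p = 0.19). It was called by DESeq2 (adjusted p = 0.0442) and by edgeR without cDKO replicate 2. Aldoa followed with -0.22 ± 0.07 (edgeR adjusted p = 0.347). On the plain scale of rates every cDKO library was below every control library at 0 min for 9 members, all but Gapdh (two-sided exact permutation p = 0.1, the smallest that 3 against 3 libraries allow). Pkm, for instance, was converted at 0.944, 1.04 and 0.918% in control and at 0.379, 0.456 and 0.249% in cDKO. The cDKO mean was 0.312 to 0.469 of the control mean in these 9. The library-wide rates did not overlap either, at 1.62 to 1.67% in control and 0.542 to 0.845% in cDKO. With T coverage alone as the offset, edgeR called 84.7% of all genes tested (7458 of 8809), all of them lower in cDKO. The lower plain rates are thus not particular to the members.

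During the chase the members separated into genes that lost their label within hours and genes that kept most of it for 3 h. The control rate of Hk2 had a mean of 2.28 ± 0.181% at 0 min, 0.738 ± 0.538% at 180 min and 0.0293 ± 0.0401% at 540 min. Slc2a1 went from 2.33 ± 0.365 to 0.938 ± 0.153 and 0.0544 ± 0.0173%. At 540 min both were below 0.0619%, the rate that 418 short-lived genes still showed in cDKO at that time, so those last values are near what can be resolved. For Hk2 no conversion was seen in control replicate 2, which allows a rate of up to 0.0664%. In cDKO replicate 1 the table lists 0 conversions but 2 reads with one, so no limit is given there.

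Ldha behaved differently. Its control rate was 1.25, 1.36 and 1.17% at 0 min and 1.26, 1.34 and 1.25% at 180 min, with no loss visible over these 3 h. By 540 min it was 0.450, 0.407 and 0.352%. The mean at 180 min was 101% of that at 0 min, and the mean at 540 min 31.5% of that at 180 min. Aldoa kept 95.6% to 180 min, Pgk1 92.5%, Pkm 88.0%, Tpi1 84.7% and Pfkl 77.2%. From 180 to 540 min Tpi1 kept 20.4% and Pfkl 22.6%, against 52.5% for Aldoa, 64.2% for Pgk1 and 72.4% for Pkm. Over 6951 genes with T coverage of at least 1000 in each library, the medians were 59.4% kept from 0 to 180 min and 16.6% from 180 to 540 min. Of these genes 6.39% kept 95% or more to 180 min. In cDKO Ldha kept 87.1% to 180 min and 56.7% of that to 540 min. For Aldoa the cDKO shares were 107 and 57.9%. The control rate of Gapdh was 0.431 ± 0.109% at 0 min and 0.841 ± 0.180% at 180 min. Since it rose, and 92.7% of the Gapdh reads were multimapping, no half-life is read from it. The rates of Pgk1, with 99.4% multimapping reads, belong to the gene and its copies together.

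**Figure D4:**
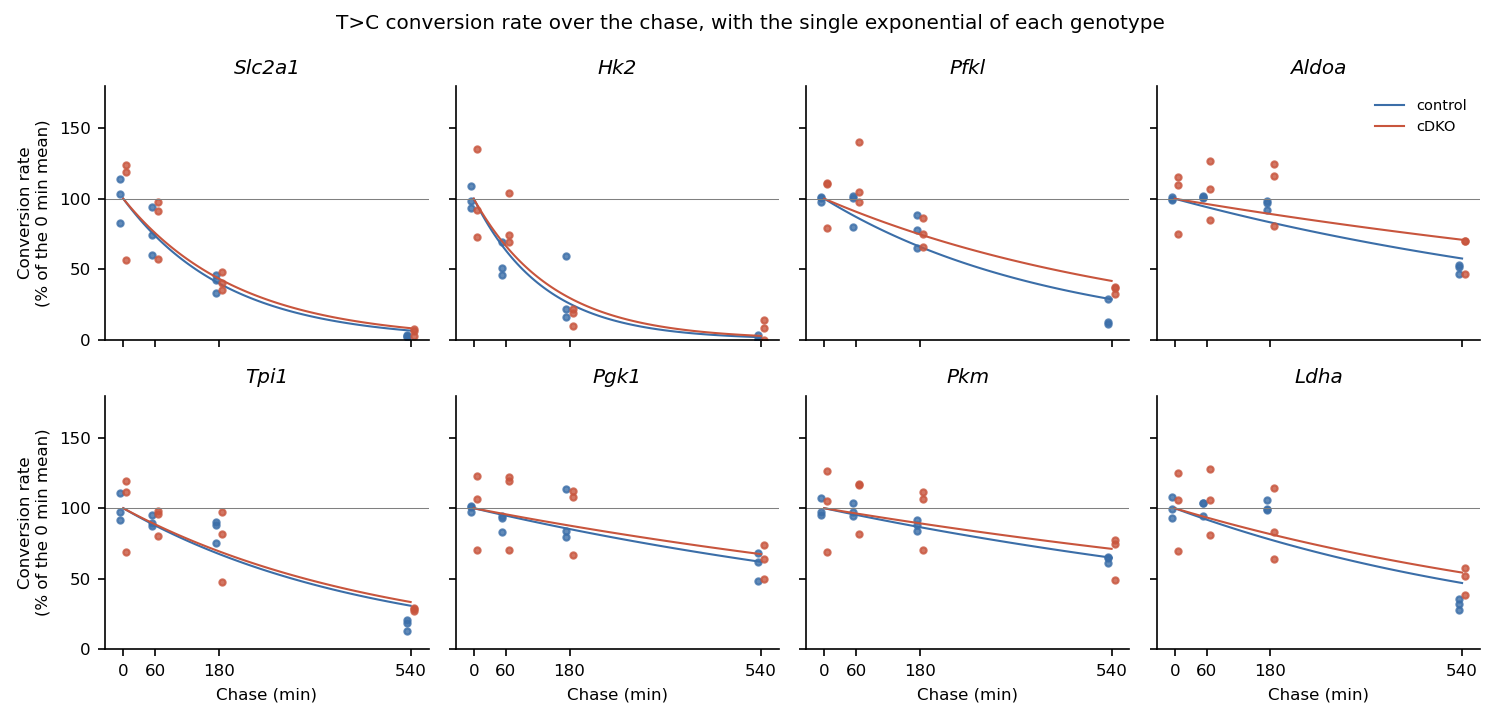
Conversion rate as a percentage of the 0 min mean of the genotype (vertical axis) over the chase in min (horizontal axis) for 8 genes, 1 point per library, with the fitted single exponential of control (blue) and cDKO (red). The Ldha and Aldoa points of control stay near 100% to 180 min and lie below the curve at 540 min, whereas Hk2 and Slc2a1 fall from the start. The Hk2 points scatter widely around its curves.

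Half-lives were taken from a single exponential fitted to the 12 libraries of a genotype. Eno1 in both genotypes and Gapdh in control reached the upper bound of the fit, 10000 min, and both genes are left out below. Over the other 8 members the order in control was Hk2, Slc2a1, Pfkl, Tpi1, Ldha, Aldoa, Pgk1 and Pkm, from 91.4 to 864 min, and 8 of 8 were longer in cDKO. The Pgk1 half-lives, here and below, belong to the gene and its copies together. The control median of the 8 was 406 min and the cDKO median 520.2 min, with a median log2 ratio of 0.30. Hk2 and Slc2a1 did not pass the study's limit on the spread at 0 min, and over the 6 members that did the medians were 586 and 781 min with a median log2 ratio of 0.33. Over the 3712 genes that passed this limit, the medians were 224 and 251 min, the median log2 ratio was 0.19, and 68.6% were longer in cDKO. With the 0.0619% background subtracted the median log2 ratio was 0.13 for the 8 members and 0.09 for all genes passing, and 7 of 8 were longer. The level of the half-lives depended on the fit. The control median of the 8 was 255 min in a log-linear fit (median log2 ratio 0.49) and 868 min without the 540 min libraries (6 of 8 longer). Fits of rates alone take the level of a gene as steady, whereas Ldha, Tpi1, Pgk1, Aldoa and Pkm fell in control. With rates multiplied by CPM, the medians of the 8 were 325 min in control and 423 min in cDKO. The median log2 ratio was then 0.57 for the 8 and 0.26 for all genes passing. In that fit control Pkm had 612 min and Ldha 365 min.

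Hk2 had a half-life of 91.4 min in control, shorter than all but 7.22% of genes, and Slc2a1 of 136 min, longer than 23.4%. Each replicate half-life joined the 4 libraries of a replicate number, which in control did not deviate together across chase times. Replicate half-lives of Hk2 and Slc2a1 spanned 76.3 to 143 and 99.7 to 204 min in control, so these neighbours in the order do not differ beyond their spread. Pfkl (299 min) and Tpi1 (318 min) likewise overlapped each other. Ldha at 495 min was longer than 90.0% of genes. Aldoa (677 min), Pgk1 (781 min) and Pkm (864 min) were longer than 94.1 to 95.8%, and the replicates of Pgk1 overlapped those of both others, while those of Aldoa lay below those of Pkm. Between Slc2a1 and Pfkl, Tpi1 and Ldha, and Ldha and Aldoa the control replicates did not overlap. Values beyond 540 min are extrapolated past the last collection. In control, each member with a half-life lost label faster per hour after 180 min than before it. On the log2 scale the loss per hour went from -0.01 to 0.28 for Ldha, from 0.02 to 0.15 for Aldoa and from 0.08 to 0.38 for Tpi1. A single exponential describes such a course only roughly.

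In 2 of the 8 members the replicate half-lives of the genotypes did not overlap. Aldoa had control half-lives of 669, 723 and 642 min against 1053, 1090.02 and 1134 min for cDKO, a log2 ratio of 0.68. Ldha had control half-lives of 535, 439 and 522 min against 612, 543 and 783 min for cDKO, with a log2 ratio of 0.31 (two-sided exact permutation p = 0.1 for each gene, n = 3). The control half-lives join libraries that are not shown to belong together, so their spread is uncertain. Of all genes passing, 17.0% had all cDKO replicates above all control replicates. The ratio of Ldha was -3.07 without the 540 min libraries, where the control rate showed no loss by 180 min. In the same setting Tpi1 had -0.62, Aldoa 1.54, Pgk1 1.94 and Pkm 2.76. For the others the replicates overlapped. Hk2 had a log2 ratio of 0.16, Slc2a1 of 0.13 and Pgk1 of 0.28. These became -0.02 for Hk2 without control replicate 2, -0.10 for Slc2a1 and -0.09 for Pgk1 without control replicate 1, and -0.09 for Slc2a1 without cDKO replicate 3.

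A fit of conversion counts over all 24 libraries tested the difference in loss per hour. It called none of the 10 members, where 0.109% of all genes tested were called (10 of 9207, with 1581 at an unadjusted p under 0.05). With a replicate block within genotype it called 55 genes and no member, and DESeq2 called 207 genes and no member. Positive values mean slower loss in cDKO. Hk2 had 0.19 ± 0.10 (edgeR adjusted p = 0.326), Slc2a1 0.12 ± 0.07 (adjusted p = 0.412) and Pfkl 0.11 ± 0.05 log2 per hour (adjusted p = 0.244). Tpi1 and Ldha had 0.08 ± 0.04 and 0.07 ± 0.04 (edgeR adjusted p = 0.315 and 0.317). Pkm, Pgk1 and Aldoa were within 0.03 of 0. The median over all genes was 0.07 and over the members 0.05. The 540 min rates of Hk2 and Slc2a1 in this fit were near what can be resolved. To 180 min Hk2 kept 32.4% of its 0 min rate in control and 16.6% in cDKO, and Slc2a1 kept 40.2 and 41.1%. At 60 min Hk2 kept 55.3% in control and 82.3% in cDKO, and Slc2a1 kept 76.2 and 81.9%. The control rates of Hk2 at 180 min were spread widely, at 1.36, 0.365 and 0.494%. Before 540 min the shares of Hk2 thus went both ways, and those of Slc2a1 were slightly higher in cDKO.

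**Figure D5:**
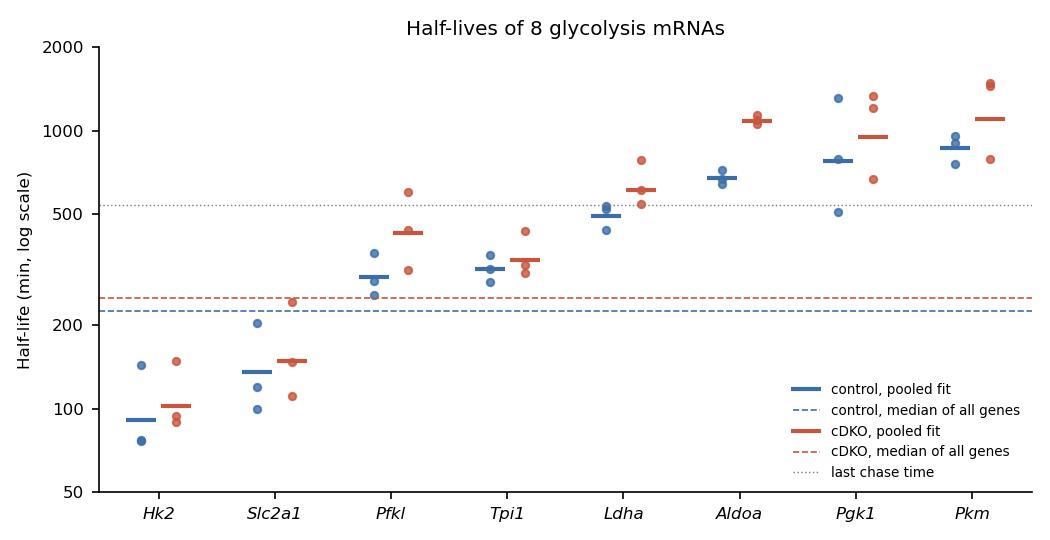
Half-lives of 8 genes in min on a log axis, ordered by control, with 1 point per replicate and a dash for the fit to all 12 libraries of control (blue) and cDKO (red). Dashed lines mark the medians of 3712 genes (224 and 251 min) and the dotted line the last collection at 540 min. Hk2 and Slc2a1 lie below the medians and the other 6 genes above them, and only Ldha and Aldoa have cDKO replicates that all lie above the control ones.

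The rest of the pathway was described from lists of 76 further genes, of which 60 to 62 had enough reads for abundance tests. Between genotypes 8, 19, 14 and 15 of them were called at 0, 60, 180 and 540 min, or 13.3, 31.7, 23.3 and 24.6% of those tested, beside 13.4, 20.2, 18.9 and 19.2% of all genes. They went both ways, with 3 higher and 5 lower at 0 min and 6 higher and 9 lower at 540 min. In control 10 of 61 were called over the chase, or 16.4% beside 16.2% of all genes, and in cDKO none beside 0.117%. The counts of the single lists below are small and stand beside the same shares of all genes, 13.4 to 20.2% by time.

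The differences between genotypes were largest among isozymes and transporters that stand beside the members. Hk3, a hexokinase of myeloid cells, held 160 ± 14.3 CPM in control and 2.68 ± 2.65 CPM in cDKO at 0 min, a log2 change of -5.79 ± 0.52 (edgeR adjusted p = 0.000198). It was lower at all 4 times. Pfkp, the platelet-type phosphofructokinase, was higher at all 4 times, with 124 ± 4.21 and 173 ± 14.6 CPM at 0 min (log2 change 0.50 ± 0.11, edgeR adjusted p = 0.0151). Gpi1, which follows hexokinase in the pathway, was called at 540 min alone, with 735 ± 33.9 and 880.5 ± 27.9 CPM, and Minpp1 was higher at 180 and 540 min. Among the 21 other enzymes listed, 10 were tested, and 2, 2, 3 and 4 were called in order of time (13.4, 20.2, 18.9 and 19.2% of all genes).

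Slc2a3 (GLUT3), a glucose transporter of high affinity, had 5.49 ± 0.52 CPM in control libraries and 24.8 ± 6.84 CPM in cDKO at 0 min (log2 change 2.19 ± 0.28, edgeR adjusted p = 0.00118). Slc16a3 (MCT4), which exports lactate, had 21.6 ± 4.45 and 93.4 ± 58.4 CPM (2.13 ± 0.48, adjusted p = 0.0182). Both were higher at all 4 times. Slc16a1 (MCT1), another lactate carrier, was lower at 60, 180 and 540 min, and Tigar, which lowers fructose 2,6-bisphosphate, was lower at all 4. Pdk1, a kinase that holds back pyruvate dehydrogenase, was lower at 60 and 540 min, and its relative Pdk3 higher at 180 and 540 min. Of the 20 genes of transport and regulation that were tested, 3, 8, 6 and 6 were called in order of time, against the same shares of all genes.

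Among the regulators, Myc had 59.4 ± 7.97 CPM in control libraries and 142 ± 23.7 CPM in cDKO at 180 min (log2 change 1.23 ± 0.14, edgeR adjusted p = 0.000214). It was also higher at 60 min and was not called at 0 and 540 min. Arnt, the partner of HIF-1 alpha, was lower at 60, 180 and 540 min. Of the 12 or 13 hypoxia targets tested, 3 were called at each time, against 13.4 to 20.2% of all genes. Vegfa and Mxi1 were lower at all 4 times, with log2 changes of -1.07 ± 0.15 and -0.93 ± 0.18 at 0 min (edgeR adjusted p = 0.00251 and 0.00875). Among the hypoxia targets called, Car9 at 60 min was the one higher, and Ak4, Bnip3l and Ndrg1 were each lower at 1 time. Of the 7 pentose phosphate genes, Pgls, Rpia and Tkt were lower at 60 min and Rpia at 540 min.

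Over the 24 libraries the levels of some members moved together. The Pearson correlation of log2(CPM + 1) was 0.853 between Ldha and Tpi1, 0.795 between Pgk1 and Tpi1 and 0.790 between Ldha and Pgk1. Pfkl and Slc2a1 had 0.705. Among 8231 genes outside the lists with a mean of at least 10 CPM, those most like the mean pattern of the 10 members were Pbk (r = 0.860), Igbp1 (0.855), Arf6 (0.832), Cnn2 (0.827) and Mtap (0.825). The 24 points share genotype and chase time in groups of 3, so these values are descriptive.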

How the data were processed

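The authors prepared QuantSeq FWD 3′ libraries, sequenced them as single reads and ran SlamDunk (version 0.4.3 per the file headers) over 3′UTR intervals of mm10. The submitters' processing notes name GRCm38. Per the file headers, each deposited table holds whole-number counts of reads, multimapping reads, covered T positions and conversions per interval. Conversion rates were deposited as a fraction of covered T positions. The deposited CPM is scaled by the authors to filtered reads. Only the count columns entered tests.

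Intervals were named through a RefSeq table of GRCm38.p6 (39091 of 39419 lines, 99.17%). The longest of overlapping intervals of a gene was kept, and counts were summed per gene. CPM here was recomputed from reads in 3′UTRs, 4380238 to 7041311 per library. No molecular identifiers were used, so a limit from 0 conversions (3 counts) covers counting error only.

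Abundance was tested with edgeR 4.0.16 (R 4.3.3; TMM, filterByExpr, quasi-likelihood, Benjamini-Hochberg over all genes, threshold 0.05), with the 6 libraries of a comparison or the 12 of the interaction. Conversions were tested in the same way, using log T coverage as the offset (plus the log library-wide rate in the 0 min comparison) for genes with 50 conversions in all and a minimum coverage of 100 per library. The SE of a log2 change was its size over the root of F. Half-lives were fitted by least squares to rates divided by the 0 min mean of the genotype, bounded to 1 and 10000 min. Replicate half-lives used the 4 libraries of a replicate number. Genes passed with a normalised 0 min SD under 0.3 in both genotypes.

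Alternatives were DESeq2 1.42.0, other scalings, no filter, all intervals summed, a replicate block, fits of more libraries, leaving out each replicate and, chosen after seeing the data, removal of multimapping reads and the sum of Eno1 and Eno1b. Within cDKO, libraries of the same number deviated together across chase times (correlation 0.263 to 0.709 with the 0 min libraries over 8321 genes), so the numbers pair them. In control (-0.0315 to 0.115) and between genotypes (-0.0752 to 0.103) they did not. Per the study's methods, replicates came from separate animals or embryos. Whether a number marks the same embryo at each chase time is not given in the sources used here. Scripts were tested on simulated data.

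The 10 genes and the gene lists were chosen with earlier results of these data known. The named genes are the 10 members, 5 genes of most similar pattern, Tut4 and Tut7, and genes of the other lists that were called. Where more than 6 of a list were called, the last were drawn from the 6 with the largest log2 change and at least 10 CPM. Not all of these are named, and none from the control chase. Genes without a 3′UTR interval in the tables were not analysed here.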

Additional observations from a re-analysis of the deposited data

How the results depend on the processing

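Calls at all 4 times, and those that rest on multimapping reads, depended on the processing. In the fit of all 24 libraries Hk2 lost its call at 60 min (edgeR adjusted p = 0.0555). Slc2a1 was called there at 60 and 180 min (edgeR adjusted p = 0.0221 and 0.0382). Under the alternatives, 112 counts of members called, or of members with a longer half-life in cDKO, kept within 1.5 times and 24 moved. Those that kept include comparisons where no member was called in either setting. Of the tested changes of single genes, 1095 kept sign and side of the threshold, 54 changed sign with no call in either setting, 47 lost the threshold, 26 gained it and 3 called values changed sign. Of 96 half-life ratios, 7 changed sign. At 0 min the count of members called went from 1 to 0 under upper-quartile scaling, without a filter, without multimapping reads and with the replicate block (Pgk1 adjusted p = 0.0797, edgeR). With the replicate block 3, 2 and 4 members were called at 60, 180 and 540 min, without Pgk1 at 180 min, and with Pfkl in place of Slc2a1 at 540 min. At 540 min DESeq2 also called Hk2 and Pfkl and not Slc2a1. In the cDKO chase 1 member, Slc2a1, was called by DESeq2 and by the fit of all 12 libraries. With an offset of T coverage alone 8 members were called in labelling at 0 min, where the median of all genes was -1.14 and Hk2 stood at -1.10, and DESeq2 called 1. Without multimapping reads Pgk1 stood at -0.32 at 60 min and Gapdh at 0.56 in the control chase. The log2 half-life ratio of Ldha was -3.07 without the 540 min libraries, and that of Tpi1 -0.62. The cause of these changes was not tested.

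Leaving out 1 replicate gave 0 to 1 members called at 0 min, 1 to 3 at 60 min, 0 to 3 at 180 min, 1 to 7 at 540 min and 0 to 1 in labelling. Over all genes, 1360 were called at 0 min and 2292 in a fit of all 24 libraries. The cDKO chase had 12 calls, against 123 by DESeq2, 128 with the replicate block and 103 in the fit of all 12 libraries. The loss per hour had 10 calls, against 207 by DESeq2, 55 with the replicate block, 17 at a coverage of at least 1000, 3 with the background subtracted and 1 without the 540 min libraries. Labelling had 28 calls, and 7458 with an offset of T coverage alone. Hk2, Slc2a1, Gapdh and Eno1 were limited by depth.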
